A study of Mus musculus with 45 samples.

Results

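The 10 microRNAs (miRNAs) described here were the members of the miR-17-92 cluster, of its paralogue miR-106b-25 and miR-92b that the deposited tables list by name: miR-17-5p, miR-18a-5p, miR-18a-3p, miR-20a-5p, miR-19b-3p and miR-92a-3p from miR-17-92, miR-106b-5p, miR-93-5p and miR-25-3p from miR-106b-25, and miR-92b-3p. In the tables they are named mmu-mir-17-5p, mmu-mir-18a-5p, mmu-mir-18a-3p, mmu-mir-20a-5p, mmu-mir-19b-3p, mmu-mir-92a-3p, mmu-mir-106b-5p, mmu-mir-93-5p, mmu-mir-25-3p and mmu-mir-92b-3p. The rule that picked them uses names and no measured value, although the list was drawn up with earlier results of these data known. They made up 10 of the 476 miRNAs listed in at least 1 table. Sequencing was of small RNA of alveolar macrophages (AM), the phagocytes of the airspace, from 45 mice aged 12 weeks, 21 males and 24 females, exposed for 3 h to filtered air (FA) or ozone (O3) and studied after 18 h of recovery. The mice carried no mouse surfactant protein A (SP-A): they were SP-A knockout (KO) mice, or humanized transgenic (hTG) mice made on that C57BL/6J KO background that carried human SP-A2 (1A0) alone or both SP-A1 and SP-A2 (6A2/1A0, co-ex). Each group held 4 mice, except for SP-A2 males after FA (3), SP-A2 males after O3 (3) and co-ex males after O3 (3), and the females were synchronized for the estrous cycle. The cells were recovered by lavage of the lung, so that the RNA was that of a bulk sample, in which fewer cells of a type and less RNA per cell cannot be told apart.

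A miRNA guides a silencing complex to messenger RNAs mainly through its seed, the bases 2 to 8 from its 5′ end, and miRNAs that share a seed share many targets. The miR-17-92 cluster is made from a single transcript that MYC and E2F factors induce, it is known as an oncogenic cluster that favors proliferation and limits apoptosis, and in the myeloid lineage miR-17, miR-20a and miR-106a are known to hold back monocyte maturation. The miR-106b-25 cluster lies within Mcm7, a gene of the replicative helicase, and miR-92b is a lone paralogue of miR-92a best known from neural progenitors.

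The mature sequences are shown because the results turn on how nearly identical they are. All 10 members were matched to RefSeq (GRCm38.p6). Capitals mark the seed, and each sequence is written 5′ to 3′. Of the members, 4 shared the seed AAAGUGC.
miR-17-5p: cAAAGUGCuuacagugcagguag
miR-20a-5p: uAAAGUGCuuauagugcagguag
miR-106b-5p: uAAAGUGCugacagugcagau
miR-93-5p: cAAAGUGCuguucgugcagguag
Another 3 shared the seed AUUGCAC.
miR-92a-3p: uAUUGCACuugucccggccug
miR-92b-3p: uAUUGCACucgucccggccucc
miR-25-3p: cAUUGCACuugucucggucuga
The remaining 3 each had a seed of its own.
miR-18a-5p: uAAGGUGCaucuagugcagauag
miR-18a-3p: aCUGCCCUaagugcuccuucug
miR-19b-3p: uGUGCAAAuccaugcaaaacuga

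Counted from the 5′ end, miR-92a-3p and miR-92b-3p were the same at 19 of the 21 positions both have, the differences being U10C and G21C (the miR-92a-3p base first), and miR-92b-3p was 1 base longer. miR-17-5p and miR-20a-5p were the same at 21 of 23 positions and differed by C1U and C12U. The difference at position 10 lies within the mature sequence, but how reads with a mismatch were assigned is not given in the sources used here, so the division of reads between such near-identical members is uncertain.

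The 5 precursors of the miR-17-92 members lie on the plus strand of chromosome 14 (chr14:115043671-115044506, GRCm38.p6), a span of 836 bases that overlaps exons of the noncoding host gene Mir17hg in the GENCODE annotation. miR-19b-3p and miR-92a-3p are also encoded on the minus strand of chromosome X, at chrX:52741991-52742013 and chrX:52741854-52741874, outside any annotated gene other than the miRNA genes themselves, and reads from either copy cannot be told apart. The miR-106b-25 precursors lie on the minus strand of chromosome 5 (chr5:138165321-138165818) within Mcm7, where Mir106b is intronic and Mir93 and Mir25 overlap an annotated exon of at least 1 transcript. The mature miR-92b-3p lies on the minus strand of chromosome 3 (chr3:89227126-89227147), with no annotated host gene.

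The reads recovered on listed miRNAs ranged from 137965 to 2884013 per mouse (median 766213). Of the 8 macrophage and blood lineage markers 7 or 8 were listed in every table, with a summed level of 9863 to 244663 CPM over all mice (CPM, the usual scaling of reads to a common total, here that of the listed miRNAs of the mouse), and none was at 0 in all the mice of a group. Of the 10 epithelial and 10 mesenchymal markers 8 to 10 and 7 to 9 were listed. Both sums moved with the exposure: the group medians of the epithelial sum were 4113 to 9198 CPM after FA and 9769 to 14783 after O3, and those of the mesenchymal sum were 1714 to 6351 after FA and 8922 to 16532 after O3. Erythroid markers (1 to 3 of 4 listed) summed to at most 1723 CPM in any mouse, a sum that leaves out miR-486b-5p. The lymphoid marker miR-150-5p reached 14192. Neither of the 2 endothelial markers was listed in the co-ex male, co-ex female and KO female tables, 1 of them was at 0 in every SP-A2 male after FA, and their sum reached 1073 in a KO male after O3. The library numbers in the labels run by genotype, within it by sex and within that by exposure. Genotype, sex and exposure can therefore not be told apart from library number.

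The reads of the members were unevenly spread, and 4 of them carried most. miR-92a-3p and miR-92b-3p, both with the seed AUUGCAC, led with medians of 13447 and 6022 CPM over all 45 mice. They were followed by miR-93-5p at 1742 and miR-25-3p at 985.6. The other members were sparse, with medians over the mice in which they were listed of 88.6 for miR-106b-5p, 45.4 for miR-17-5p, 36.5 for miR-19b-3p, 35.4 for miR-20a-5p, 15.1 for miR-18a-3p and 12.0 for miR-18a-5p. miR-92a-3p, the last member of the miR-17-92 transcript, was read far more often than the other members encoded with it, although part of its reads may come from the copy on chromosome X. Read levels of different small RNAs also depend on how well each is ligated and amplified, which was not measured.

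**Figure D1:**
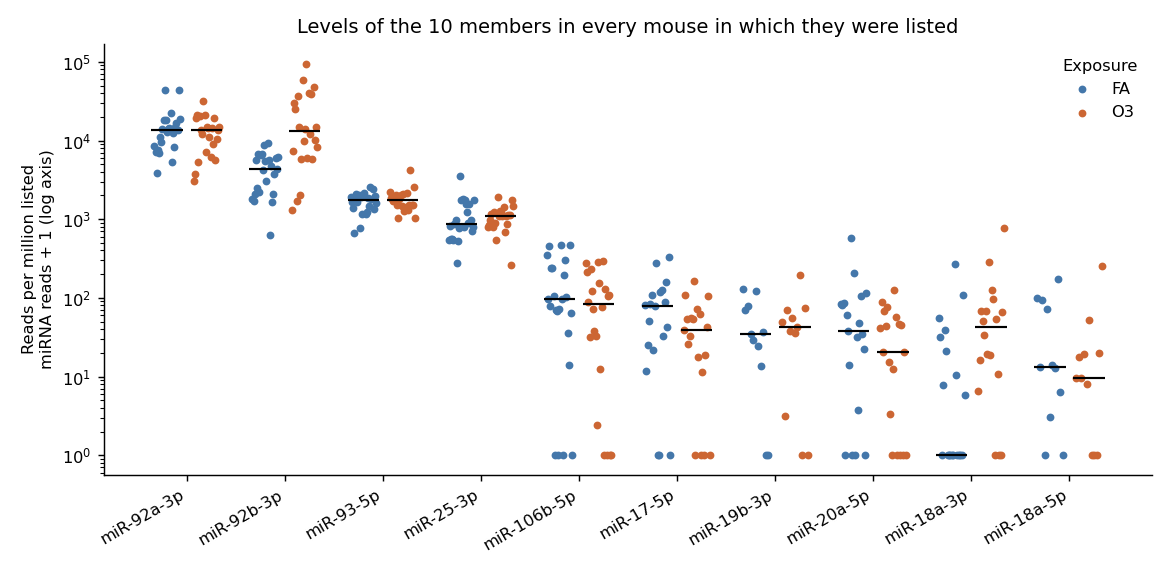
Level of each member in CPM of listed miRNA reads, plus 1, on a log axis, in every mouse of a table that lists it, after FA (blue) and O3 (orange); black lines are medians. Median levels fall from 13447 for miR-92a-3p to 12.0 for miR-18a-5p, and points at the bottom are mice with no read. The median of miR-92b-3p was 4356 after FA and 13091 after O3. That of miR-18a-3p was 0 after FA (10 of 19 mice at 0) and 41.1 after O3 (3 of 18 at 0).

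The tables did not all list the same members. The SP-A2 male, SP-A2 female and KO male tables held all 10, while that of co-ex females held 8, that of KO females 7 and that of co-ex males 6. miR-92a-3p, miR-92b-3p, miR-93-5p, miR-25-3p and miR-106b-5p were in all 6, and are 5 of the 206 miRNAs that were. miR-17-5p and miR-20a-5p were missing only from the co-ex male table, and miR-18a-5p and miR-19b-3p from all tables but those of SP-A2 mice and KO males. Of 21 other mature miRNAs of these clusters, of the related miR-106a-363 cluster or with a related seed that were looked for, 7 were listed (miR-17-3p, miR-19a-3p, miR-92b-5p, miR-106b-3p, miR-93-3p, miR-25-5p and miR-32-5p). None of the mature miRNAs particular to miR-106a-363 was among them.

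Whether O3 changed the levels of these miRNAs was asked first within each table, as the difference of the means of log2(normalized read count + 1), with limma's moderated test adjusted over all miRNAs of the table and a false discovery rate (FDR) of 0.1. The member that rose was miR-92b-3p, in KO males. There the normalized read counts were 639, 4182, 1266 and 1996 after FA and 41517, 10869.9, 37853 and 4008 after O3. The lowest O3 mouse fell just below the highest FA mouse, and the other 3 O3 mice stood above all FA mice. The means were 2021 ± 1544 (SD, n = 4) and 23562 ± 18886 (SD, n = 4), and the log2 difference was 3.33 (SE 0.75, 95% confidence interval 1.68 to 4.97, adjusted p = 0.0315). It was 1 of 16 miRNAs that rose in that table (4.88% of those tested), while 1 fell, and after rescaling by median ratios 15 rose and 3 fell. The call was lost without KO male O3 replicate 3 (adjusted p = 0.151) and held when any of the other 7 mice was left out. In these mice the reads on listed miRNAs had a median of 457456 after O3 and 1083876 after FA, and the median of all 328 miRNAs was -0.29.

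In the other 5 groups miR-92b-3p did not pass the test, but most O3 mice lay above the FA mice. In SP-A2 males the normalized read counts were 1445, 1509.7 and 1699 after FA and 1259, 7475 and 23033 after O3, a log2 difference of 1.96 (SE 0.84, 95% confidence interval 0.09 to 3.82, adjusted p = 0.259). In SP-A2 females they were 4269.6, 1763, 4390.0 and 1865 after FA and 23702, 1224, 31937 and 11401 after O3, a log2 difference of 1.86 (SE 0.82, 95% confidence interval 0.06 to 3.65, adjusted p = 0.380). In each of these tables a single O3 mouse was below every FA mouse and all the other O3 mice were above every FA mouse. That mouse went against the rise, and without it the difference passed limma's test. Adjusted p was then 0.0243 in males (without replicate 1) and 0.0113 in females (without replicate 2). Without O3 replicate 3, the highest mouse of each table, the difference did not pass. It was 0.99 in males (adjusted p = 0.420) and 1.30 in females (adjusted p = 0.801).

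In co-ex females miR-92b-3p was at 4151, 2109.5, 8573 and 4430.3 after FA and 9725, 11805, 86393 and 6307 after O3, a log2 difference of 1.89 (SE 0.66, 95% confidence interval 0.51 to 3.26, adjusted p = 0.213). In KO females it was at 2794, 4759, 6214 and 4703 after FA and 50711, 7418, 10300.4 and 8295 after O3, a log2 difference of 1.59 (SE 0.55, 95% confidence interval 0.43 to 2.76, adjusted p = 0.502). The KO female groups did not overlap, a separation that 3.14% of the 287 miRNAs of that table showed in the same direction. In co-ex males the values were 6497, 6187, 7097 and 6945 after FA and 2607, 8416 and 50439.9 after O3, and the log2 difference was 0.63 (SE 0.75, 95% confidence interval -0.98 to 2.24, adjusted p = 0.941). It rested on O3 replicate 3, without which it was -0.51. In the 6 tables together, 17 of the 22 O3 mice had more miR-92b-3p than the highest FA mouse of their own table and 3 had less than the lowest. This count was made for the members only, so how common it is among all miRNAs is not known.

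**Figure D2:**
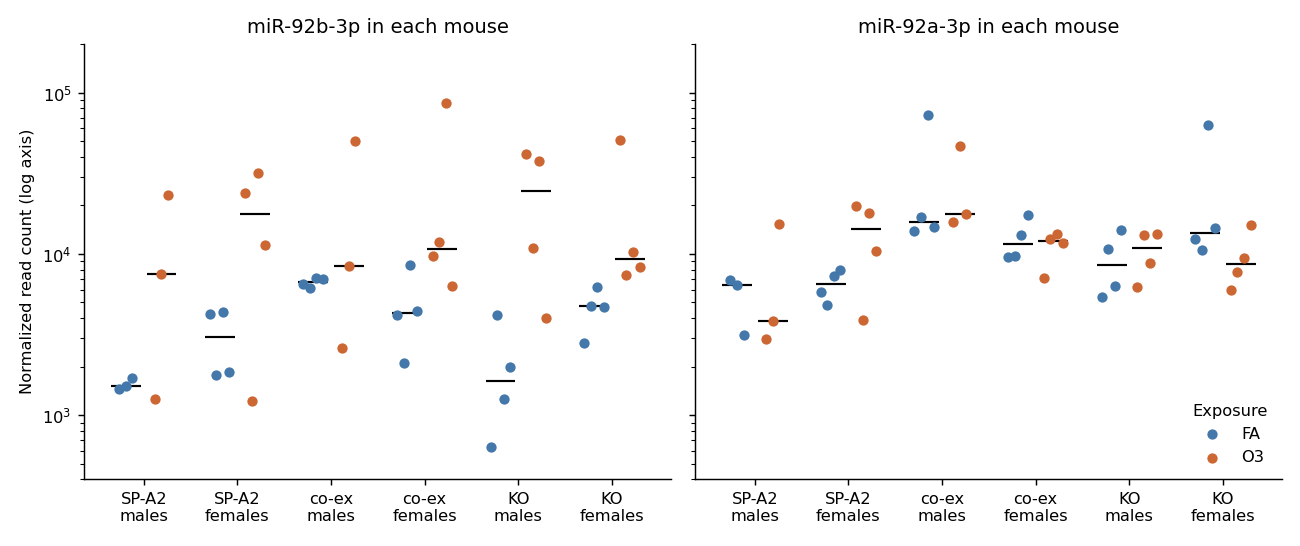
Normalized read count of miR-92b-3p (left) and miR-92a-3p (right) in each mouse, on a log axis, by genotype and sex, after FA (blue) and O3 (orange); black lines are medians. For miR-92b-3p 17 of the 22 O3 mice lie above the highest FA mouse of their table, and for miR-92a-3p 4 do, a count made for the members only.

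The mean of the 6 O3 differences, each genotype and sex weighted equally and fitted over the 206 miRNAs listed in every table, was 1.88 (SE 0.38, 95% confidence interval 1.11 to 2.64, adjusted p = 0.000314) for miR-92b-3p. It was 1 of 41 miRNAs that rose by this measure (19.9% of 206), while 12 fell (5.83%), and it was the 1 member of 5 among the 25.7% called. With each mouse left out in turn the difference stayed between 1.68 and 2.06 and passed the test in all 45 fits. The median over all 206 miRNAs was 0.19, and rescaling each mouse by its median ratio to the others moved it to 0.07, with 39 miRNAs then higher and 19 lower and miR-92b-3p at 1.75. The summed epithelial and mesenchymal markers were also higher after O3 in every genotype and sex. The median of the macrophage and blood lineage sum was lower after O3 in 5 of the 6 groups, for example 137540.0 CPM after FA and 54969 after O3 among SP-A2 females, and was 68863 and 68930.1 among KO females. The endothelial sum was higher after O3 in the 3 tables that list a marker, with medians of 6.48 and 256 among SP-A2 males. The part of these in the difference was not tested. From mouse to mouse within groups miR-92b-3p stood at r = 0.40 with the epithelial sum and 0.02 with the mesenchymal sum. With the macrophage and blood lineage sum it stood at r = -0.23 (Pearson, log2 scale, 45 mice, a description of shares of the same libraries).

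miR-92a-3p, which shares the seed of miR-92b-3p and all but 2 of its compared bases, did not pass the test in any table. Its mean difference over the 6 groups was -0.01 (SE 0.23, 95% confidence interval -0.48 to 0.46, adjusted p = 0.996). In KO males the normalized read counts were 5398, 10767, 6362 and 14065 after FA and 6265, 13015, 8732 and 13371 after O3, and the log2 difference was 0.22 (SE 0.41). The 4 O3 mice lay within the range of the FA mice there. The lowest and the highest difference came from KO females at -1.05 (SE 0.53) and SP-A2 females at 0.78 (SE 0.46). In SP-A2 females the values were 5792, 4828, 7289 and 7985 after FA and 19760.4, 3871, 18016 and 10356 after O3, and without O3 replicate 2, the lowest mouse, the difference was 1.28 and passed the test (adjusted p = 0.0416), while without O3 replicate 1 it was 0.50. In KO females it was -0.46 without FA replicate 3, whose value of 63178 was the highest there.

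The balance of both miRNAs within a library does not depend on the scaling of that library. By group means of CPM the order was miR-92a-3p, miR-92b-3p, miR-93-5p, miR-25-3p and miR-106b-5p in all 6 groups after FA, and miR-92b-3p came first in all 6 after O3. The order after O3 rested on 1 mouse in 3 of the 6 groups. Without co-ex female replicate 3 the means were 9979 CPM for miR-92b-3p and 11004 for miR-92a-3p. Without KO female replicate 1 they were 11086 and 13092, and without co-ex male replicate 3 they were 3930.5 and 22165. In co-ex males the order also turned with the scale, since the mean normalized read count was 20488 ± 26101 (SD, n = 3) for miR-92b-3p and 26574 ± 17195 (SD, n = 3) for miR-92a-3p. Reads of miR-92b-3p per read of miR-92a-3p ranged from 0.0982 to 0.737 (median 0.325) in the 23 FA mice, none of which had more miR-92b-3p than miR-92a-3p. In the 22 O3 mice they ranged from 0.167 to 8.53 (median 1.10), with 12 mice above 1. The median was 0.170 among KO males given FA and 2.58 among those given O3. For co-ex males it was 0.418 with FA and 0.181 with O3, and 1 O3 mouse was above 1. This ratio and the order with a mouse left out were chosen after the values were seen and are given as a description, with no test.

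**Figure D3:**
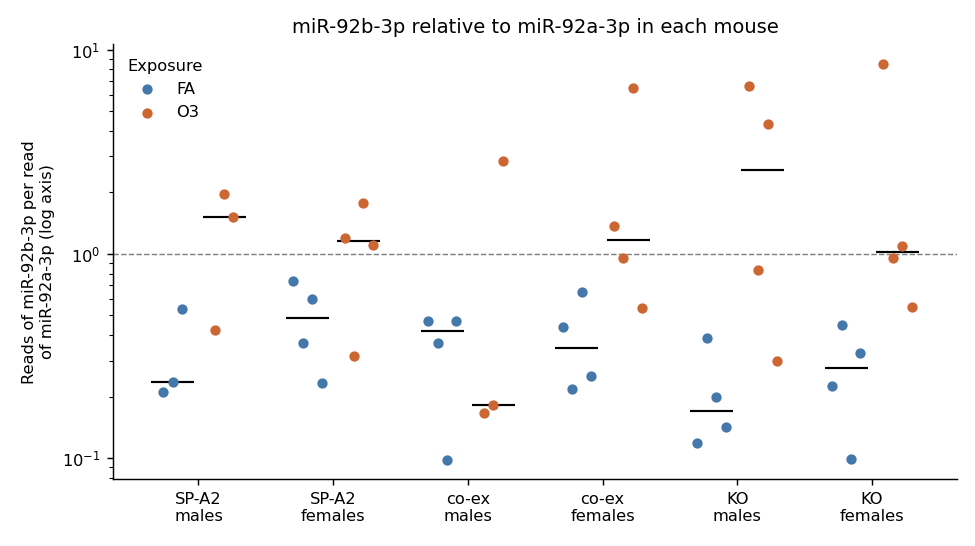
Reads of miR-92b-3p per read of miR-92a-3p in each mouse, on a log axis, by genotype and sex, after FA (blue) and O3 (orange); black lines are medians and the dashed line marks equal reads. All 23 FA mice lie below 1 and 12 of the 22 O3 mice above it.

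The opposite arm of the same hairpin, miR-92b-5p, had far fewer reads, at most 432 in any mouse. Its mean difference over the 6 groups was -0.59 (SE 1.00, 95% confidence interval -2.61 to 1.43, adjusted p = 0.772), a wide interval that holds 0.

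The third member with the seed AUUGCAC, miR-25-3p, did not pass the test in any table, and its mean difference over the 6 groups was 0.20 (SE 0.24, 95% confidence interval -0.28 to 0.68, adjusted p = 0.654). In SP-A2 males its normalized read counts were 443, 723 and 457 after FA and 778, 863 and 767 after O3. All 3 O3 mice were above all 3 FA mice, as 12.7% of the 448 miRNAs of that table were in the same direction, and the log2 difference was 0.60 (SE 0.38, 95% confidence interval -0.24 to 1.45, adjusted p = 0.456). In SP-A2 females they were 422, 383, 567 and 814 after FA and 1069, 576, 1080.4 and 693 after O3, groups that overlapped, with a log2 difference of 0.65 (SE 0.38). In KO males the difference had the other sign, -0.50 (SE 0.43).

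Among the members with the seed AAAGUGC, miR-93-5p was the most abundant, and it varied least between mice of the 5 members in all tables. Its mean difference over the 6 groups was 0.21 (SE 0.17, 95% confidence interval -0.14 to 0.56, adjusted p = 0.455), and its 6 differences ran from -0.25 in KO females to 0.46 in SP-A2 females. In KO males the normalized read counts were 1892, 1296, 2004 and 1720.3 after FA and 2171, 1158, 1460.2 and 2928 after O3. The O3 mice lay on both sides of the FA mice, and the log2 difference was 0.09 (SE 0.40). Within groups the SD of miR-93-5p between mice was 0.52 on the log2 scale, against a median of 1.75 over the 206 miRNAs. It was 0.76 for miR-25-3p, 0.81 for miR-92a-3p, 1.36 for miR-92b-3p and 2.82 for miR-106b-5p.

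miR-106b-5p, the first member of the miR-106b-25 cluster, was too sparse for a narrow answer. Its mean difference over the 6 groups was -0.55 (SE 0.83, 95% confidence interval -2.23 to 1.14, adjusted p = 0.743). In KO males the values were 197, 267, 77.6 and 33.4 after FA and 298, 0, 125 and 0 after O3. Reads were missing in 2 of the 4 O3 mice, and a count of 0 allows up to 3 reads, which is a normalized read count of at most 11.5 in any of these mice. Such limits cover counting error only. The opposite arm, miR-106b-3p, had a median of 231 reads over the 45 mice and a mean difference of 0.02 (SE 0.35).

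**Figure D4:**
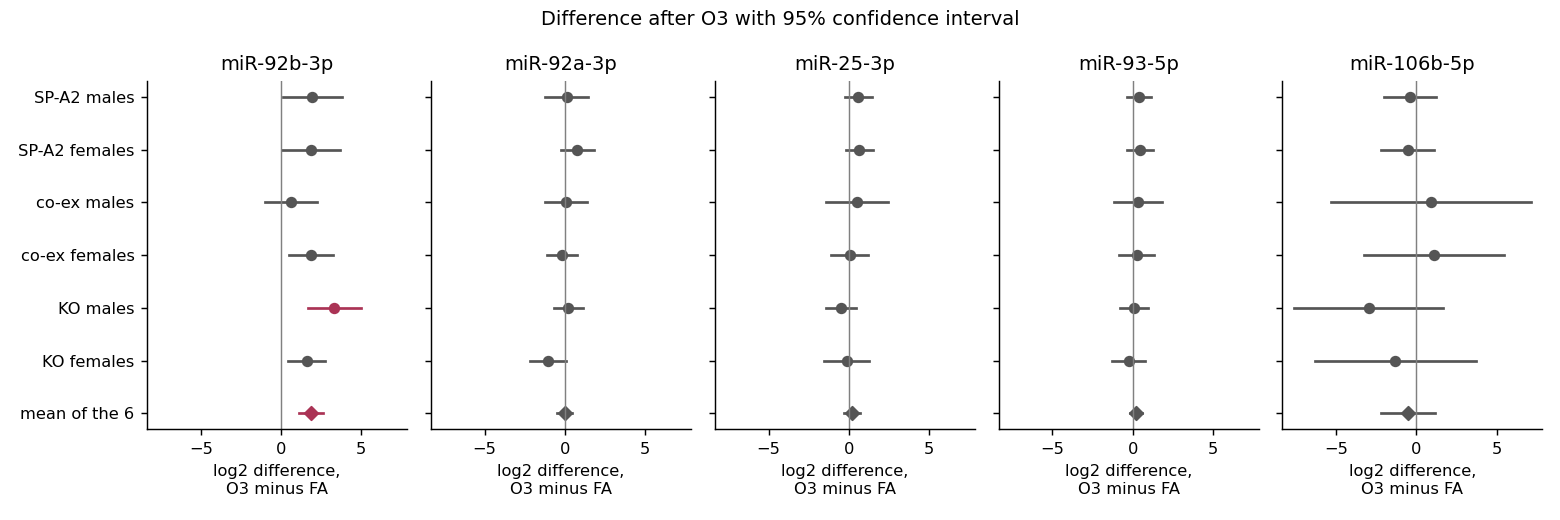
Difference in log2(normalized read count + 1), O3 minus FA, with its 95% confidence interval, for the 5 members listed in every table, by genotype and sex and as the mean of the 6 (diamonds); red marks differences that passed FDR 0.1. miR-92b-3p lies to the right of 0 in all 6 groups and passes in KO males and in the mean (1.88), while the means of the other 4 lie between -0.55 and 0.21.

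miR-17-5p, after which the cluster is named and which acts on cell-cycle and apoptosis genes, had at most 338 reads in any mouse. In KO males its normalized read counts were 120.0, 110.2, 24.5 and 83.4 after FA and 61.6, 0, 10.1 and 0 after O3. Of the 4 O3 mice 3 were below the lowest FA mouse and 2 had no read, and the log2 difference was -3.84 (SE 1.88, 95% confidence interval -7.94 to 0.27, adjusted p = 0.358), which did not pass the test. In KO females they were 114, 33.0, 467 and 0 after FA and 18.7, 30.5, 73.4 and 0 after O3, with a mouse at 0 in each group and a log2 difference of -1.33 (SE 2.26). In the SP-A2 mice no value was 0. Males given FA had 64.5, 9.62 and 20.0 and those given O3 37.3, 109 and 41.5, a log2 difference of 1.21 (SE 0.96), and the difference in females was -0.34 (SE 0.93). In co-ex females it was 1.03 (SE 2.50).

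miR-20a-5p, which differs from miR-17-5p at 2 positions, ran from -1.83 (SE 2.02) in KO males to 1.76 (SE 1.39) in SP-A2 females and did not pass the test in any of 5 tables. In KO males its values were 32.0, 2.42, 36.1 and 100.1 after FA and 57.7, 0, 43.8 and 0 after O3, and the O3 mice without a read were those without a read of miR-17-5p. O3 replicate 4 had the fewest reads on listed miRNAs in the group (180625) and O3 replicate 2 had 402405. No member of the AAAGUGC seed passed in these KO males, with differences of -3.84 for miR-17-5p, -2.97 for miR-106b-5p, -1.83 for miR-20a-5p and 0.09 for miR-93-5p.

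miR-19b-3p was listed in 3 tables. In SP-A2 males its normalized read counts were 103, 61.3 and 64.6 after FA and 46.5, 2.19 and 53.7 after O3. All 3 O3 mice were below all 3 FA mice, as were 9.6% of the miRNAs of that table, and the log2 difference was -1.89 (SE 1.14, 95% confidence interval -4.44 to 0.66, adjusted p = 0.442). Without O3 replicate 2, the lowest mouse, it was -0.56. For SP-A2 females it was 0.17 (SE 0.95). For KO males it was 1.26 (SE 2.10), and there 2 mice of each group had no read.

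The arms of miR-18a had the fewest reads. miR-18a-3p was at 0 in all 4 co-ex males after FA and at 367, 25.8 and 105 after O3. With 3 reads taken as the limit that a count of 0 allows in each FA mouse, the O3 mean was at least 18.7-fold higher. All O3 mice were above all FA mice, as for 6.41% of the 234 miRNAs of that table, and the test was not passed (adjusted p = 0.521 with limma). The same arm was at 5.19, 26.9, 13.2 and 0 with FA and 45.97, 23.7, 58.7 and 14.1 with O3 among SP-A2 females, a log2 difference of 2.18 (SE 1.33). For miR-18a-3p the difference was 0.71 (SE 1.57) in SP-A2 males, 1.28 (SE 2.28) in co-ex females and 1.54 (SE 2.32) in KO males. The means of co-ex females went the other way, from 52.0 after FA to 37.9 after O3. No read was found in 10 of 19 FA mice and 3 of 18 O3 mice. miR-18a-5p, the guide arm, was at 80.2, 10.8 and 76.3 with FA and 8.38, 16.8 and 6.60 with O3 among SP-A2 males, a log2 difference of -1.96 (SE 1.10, 95% confidence interval -4.40 to 0.48, adjusted p = 0.390). Neither arm passed the test in any table.

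Counted over all members, 1 of 10 passed limma's test in KO males (background 5.18% of miRNAs called). For KO females it was 0 of 7 (background 0%, with 22 miRNAs at an unadjusted p under 0.05), for co-ex females 0 of 8 (1.38%) and for co-ex males 0 of 6 (0%, with 8 miRNAs at an unadjusted p under 0.05). The SP-A2 tables had 0 of 10 each, with a background of 1.07% for females and 0.67% for males. At an unadjusted p under 0.05 there was 1 member in each table, miR-18a-3p in co-ex males and miR-92b-3p in the other 5. Over all miRNAs the share under 0.05 was 17.6% for SP-A2 males, 13.7% for KO males, 12.3% for SP-A2 females, 10.3% for co-ex females, 7.67% for KO females and 3.42% for co-ex males, so that 1 member of 6 to 10 is read against those shares. DESeq2 on the recovered reads also called miR-92b-3p in both SP-A2 tables and miR-18a-3p in the co-ex males. The median log2 difference of the members was -1.05 for KO females and -0.15 for KO males, where over all miRNAs it was 0.45 and -0.29. For co-ex females it was 0.64 (all miRNAs 0.31) and for co-ex males 0.58 (0.64). For SP-A2 females it was 0.56 (0.18) and for SP-A2 males 0.25 (0.17). None of the 7 related miRNAs passed the test in a table that listed it. The nearest were in SP-A2 males, miR-19a-3p at -4.29 (SE 1.36) and miR-32-5p at -2.60 (SE 0.82), each with adjusted p = 0.154 by limma. Only miR-106b-3p was above 0 among them there (0.04, SE 0.53). miR-19a-3p had at most 57 reads in any mouse and was listed in that table alone. miR-32-5p was at -2.97 (SE 1.27) in SP-A2 females and -1.24 (SE 2.01) in KO males.

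Whether the O3 difference depended on sex or genotype was asked of the difference itself. For miR-92b-3p the difference in males minus that in females was 1.73 (SE 1.03, 95% confidence interval -0.43 to 3.89, adjusted p = 0.531) for KO, 0.10 (SE 1.35) for SP-A2 and -1.26 (SE 1.15) for co-ex mice. Between genotypes it was 0.65 (SE 0.97) for SP-A2 minus co-ex, -0.55 (SE 0.92) for SP-A2 minus KO and -1.20 (SE 0.83, 95% confidence interval -2.89 to 0.50, adjusted p = 0.844) for co-ex minus KO. None of these passed the test, so that the call in KO males and its absence elsewhere do not show a difference between the groups. No member passed any of the 6 tests of this kind by limma (background 0.282% of 354 miRNAs for the sexes in SP-A2 mice and 0% in the other 5). None had an unadjusted p under 0.05 in them, and the nearest were miR-18a-3p for males minus females in co-ex mice at 5.39 (SE 2.70, 95% confidence interval -0.26 to 11.04, adjusted p = 0.989) and miR-17-5p for SP-A2 minus KO at 3.02 (SE 1.59, 95% confidence interval -0.25 to 6.28, adjusted p = 0.998).

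Levels after FA were compared between genotypes on the recovered reads with edgeR's quasi-likelihood test, males and females weighted equally. They were lower in SP-A2 than in co-ex mice for miR-92a-3p and miR-92b-3p. miR-92a-3p ranged from 3883 to 11291 CPM, here of the reads on the miRNAs of all 6 tables, in the 7 SP-A2 mice (median 7670). In the 8 co-ex mice it ranged from 12720 to 43596 (median 16406). The log2 difference was -1.58 (SE 0.36, 95% confidence interval -2.33 to -0.83, adjusted p = 0.00531). miR-92b-3p ranged from 1718 to 6801 in SP-A2 mice (median 2251) and from 3090 to 9395 in co-ex mice (median 6104), which overlapped, with a log2 difference of -1.26 (SE 0.31, 95% confidence interval -1.91 to -0.61, adjusted p = 0.00889). These were 2 of the 6 members tested, where 22.1% of the 213 miRNAs were called, 25 higher and 22 lower (10.3%). Both held in all 15 fits with a mouse left out, including that without co-ex male replicate 3, whose miR-92a-3p stood far above the other co-ex males (difference -1.25). With all mice miR-25-3p was at -1.05 (adjusted p = 0.164, edgeR) and miR-18a-3p at 2.56 (adjusted p = 0.264), and neither passed. miR-25-3p passed without co-ex male replicate 1 (-1.22, adjusted p = 0.0506) but was at -0.62 without co-ex male replicate 4. miR-18a-3p passed without co-ex female replicate 1 (4.94, adjusted p = 0.0465) but was at 2.16 without SP-A2 female replicate 2.

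Against KO mice the difference for miR-92a-3p was -1.37 (SE 0.36, 95% confidence interval -2.14 to -0.61, adjusted p = 0.0619), 1 of the 7 members tested, where 3% of 267 miRNAs were called and 2.62% called lower. The 8 KO mice ranged from 5294 to 44460 CPM (median 14136) and overlapped with SP-A2 mice. The call was lost in 6 of the 15 fits with a mouse left out (highest adjusted p = 0.236, without SP-A2 male replicate 3), with the replicate number as a block (-1.22, adjusted p = 0.108) and at an FDR of 0.05, and without KO female replicate 3, the highest mouse, the difference was -0.89. miR-25-3p was lower by a similar amount, with adjusted p = 0.109 (edgeR), and did not pass; its medians were 562 CPM in SP-A2 and 1109 in KO mice. Between co-ex and KO mice no member passed, where 0.966% of 207 miRNAs were called, and the difference for miR-92b-3p was 0.81 (SE 0.33) with adjusted p = 0.408 (edgeR). miR-93-5p lay between medians of 1586 and 1832 CPM in the 3 genotypes, differences that did not pass the test.

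The summed macrophage and blood lineage markers moved against miR-92a-3p. After FA their median was 180556 CPM for SP-A2, 95423 for KO and 55180.1 for co-ex mice, and from mouse to mouse within groups miR-92a-3p went with this sum at r = -0.81 (Pearson, log2 scale, 45 mice, a description of shares of the same libraries). Its part in the genotype difference was not tested. In the same measure miR-92b-3p stood at r = -0.23.

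**Figure D5:**
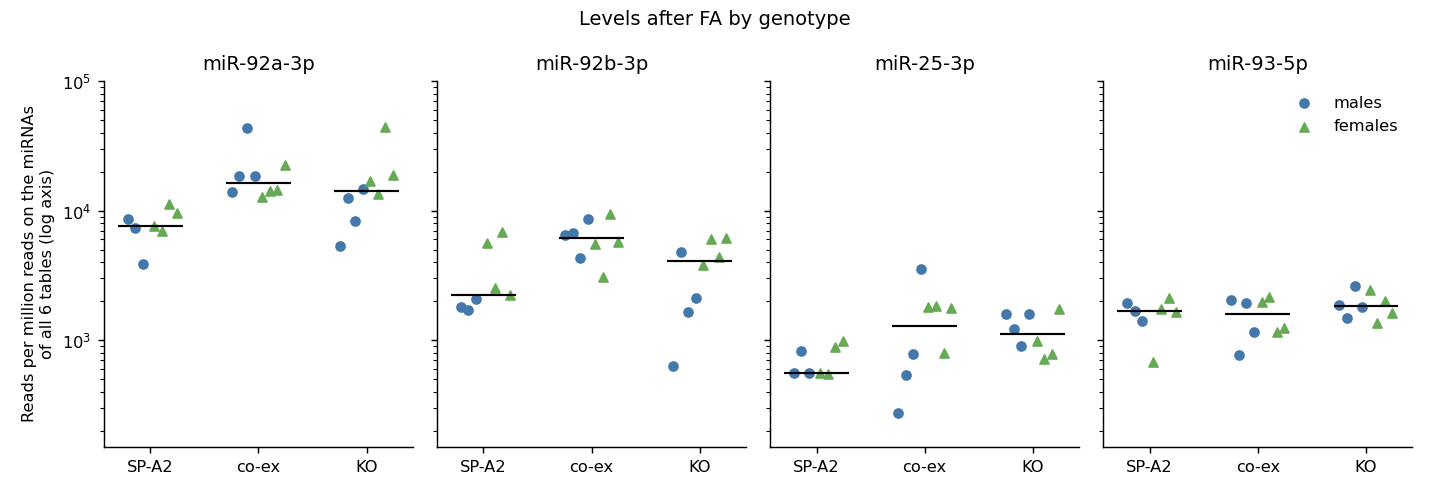
Levels of 4 members in CPM of the reads on the miRNAs of all 6 tables, on a log axis, in each mouse after FA, by genotype, with males (blue circles) and females (green triangles); black lines are medians. The medians of miR-92a-3p are 7670 in SP-A2 and 16406 in co-ex mice, and those of miR-93-5p lie between 1586 and 1832.

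Between the sexes no member passed the test after FA (background 0.485% of 206) or after O3 (0%) with edgeR. After FA miR-92b-3p was at -0.76 (SE 0.28, 95% confidence interval -1.34 to -0.18, adjusted p = 0.282) in males against females. Its unadjusted p was 0.0123, the only member under 0.05 in these 2 comparisons, where 17 of 206 miRNAs (8.25%) after FA and 6 (2.91%) after O3 were under 0.05. It passed without KO male FA replicate 2, with a difference of -0.97 (adjusted p = 0.0985), but was at -0.53 without SP-A2 female FA replicate 1.

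The members together took 0.774% to 11.2% of the reads on listed miRNAs. The group medians of that share ran from 1.17% (SP-A2 males) to 2.91% (co-ex males) after FA and from 1.43% (SP-A2 males) to 4.18% (co-ex males) after O3. KO males had 1.70% after FA against 4.10% after O3. The share of the miR-106b-25 members was small, with group medians of 0.253% to 0.350% over both exposures. That of miR-92b-3p had group medians of 0.179% to 0.661% after FA and 0.584% to 2.55% after O3, and reached 9.51% in co-ex female replicate 3 after O3.

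Likeness of levels from mouse to mouse, after the means of genotype, sex and exposure were removed, was sought only among the 206 miRNAs of all 6 tables. miR-20a-5p, miR-18a-5p, miR-18a-3p and miR-19b-3p are not among these and were not compared. Within that set, the miRNAs most like the members looked up were not members. For miR-92a-3p they were miR-320-3p (Pearson r = 0.78), miR-486b-5p (0.78) and miR-15b-5p (0.75) among 205 others over 45 mice. With the summed erythroid markers, a list that holds miR-486a-5p but not miR-486b-5p, miR-92a-3p stood at r = 0.26. That sum therefore does not cover miR-486b-5p. For miR-17-5p they were miR-338-5p (0.62), miR-185-5p (0.62) and miR-674-5p (0.61) over the 38 mice of the 5 tables that list it, and miR-106b-5p, which has its seed, ranked next (0.55). miR-92a-3p, made from the same transcript, stood at -0.12 with miR-17-5p. For miR-92b-3p, looked up after its values were seen, they were miR-1961 (0.74), miR-5099 (0.65) and miR-320-5p (0.65), while miR-92a-3p stood at 0.33 with it. Among the members in all 6 tables the highest such correlation was 0.36, between miR-92a-3p and miR-25-3p.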

How the data were processed

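Small RNA libraries (NEXTflex Small RNA kit, Illumina sequencing) were made per mouse. The authors deposited 1 table per genotype and sex with a normalized read count (signal) for each miRNA and mouse, made with CASAVA and edgeR per the labels and with edgeR and TCC per the study's methods; the aligner and genome build are not given in the sources used here. Columns of p-values, q-values and ranks from their own comparison were not used. Each column's values were whole multiples of its smallest value (tolerance 1e-6), which gave back the reads. Differences in response to O3 were tested with limma 3.58.1 (R 4.3.3) on log2(value + 1), genotypes and sexes after FA or O3 with edgeR 4.0.16 (quasi-likelihood test, TMM) on the recovered reads, both with Benjamini-Hochberg adjustment at FDR 0.1 over all miRNAs listed; edgeR and DESeq2 1.42.0 were alternatives. Fold changes on the log2(value + 1) scale understate changes of low miRNAs. The tests were checked on simulated counts with large changes, where recovery was required only at little spread between mice. The result at the spread of these mice is not given here. Replicates are separate mice per the labels. All 10 members are named whatever their values. The members and lists were chosen with earlier results of these data known.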

Additional observations from a re-analysis of the deposited data

Results flagged for a closer look

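In each group of 4 mice the highest and the lowest value of each member were compared with the rest by the gap to the nearest other mouse, and 5 of 75 groups had a mouse that stood apart; chance gives about 1 in 20. miR-92a-3p in co-ex male replicate 3 after FA was at 72301, with the other 3 mice between 13844 and 16846. miR-92b-3p in KO female replicate 1 after O3 was at 50711, with the others between 7418 and 10300.4. miR-93-5p in SP-A2 female replicate 1 after FA was at 509, with the others between 1222 and 1378. miR-25-3p in co-ex female replicate 3 after FA was at 722, with the others between 1253 and 1375. miR-25-3p in KO female replicate 2 after O3 was at 194, with the others between 1198 and 1462. All are normalized read counts, and the differences were taken on the log2 scale.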

How the results depend on the processing

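The number of members past the threshold changed under some alternatives, and no difference that had passed the test changed sign. With DESeq2 on the recovered reads it was 1 instead of 0 for SP-A2 males (all miRNAs 54 against 3), SP-A2 females (26 against 4) and co-ex males (5 against 0), and 2 instead of 1 for the level after FA in SP-A2 against KO mice, where a filter on low counts also gave 2. For SP-A2 against co-ex it was 3 instead of 2 (miR-25-3p, adjusted p = 0.0987). For SP-A2 against KO mice an FDR of 0.05 gave 0. Adding the replicate number (replicate block) also gave 0 there, with miR-92a-3p at -1.22 (adjusted p = 0.108, edgeR). Over all miRNAs DESeq2 called 41 against 17 in KO males, 14 against 4 in co-ex females and 2 against 0 in KO females, and 27 against 8 for SP-A2 against KO; edgeR on the reads called 5, 2 and 0 miRNAs for SP-A2 males, SP-A2 females and co-ex females. An FDR of 0.05 left 10 in KO males, and the replicate block gave 76 against 47 for SP-A2 against co-ex, 14 for SP-A2 against KO and 15 against 2 for co-ex against KO. With 1 mouse left out in turn, the count of members ranged from 0 to 1 for KO males, 0 to 2 for SP-A2 females, 0 to 1 for SP-A2 males, 0 to 2 for SP-A2 against KO (0 without SP-A2 male replicate 1 or 3, SP-A2 female replicate 2 or 3, or KO male replicate 2 or 4) 2 to 3 for SP-A2 against co-ex (3 without co-ex male replicate 1 or co-ex female replicate 1) and 0 to 1 for males against females after FA (1 without KO male replicate 2). Over all alternatives other than leaving out a mouse, the mean difference of miR-92b-3p over the 6 groups stayed between 1.75 and 2.45 and passed the test. The same replicate numbers did not clearly pair the mice: of 22 pairs between FA and O3, 6 had a correlation of deviations above 0.1 (median -0.016). Of 21 pairs between males and females of a genotype after the same exposure, 8 were above 0.1 (median 0.0685, highest 0.292). The replicate block gave miR-92b-3p an adjusted p of 0.00332 in KO males and 0.000509 over the 6 groups, and added miR-106b-5p for SP-A2 against co-ex (3.40, adjusted p = 0.0512). Low read numbers limit what could be seen for the members other than miR-92a-3p, miR-92b-3p, miR-93-5p and miR-25-3p.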

Other observations

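The members differed in base composition, with miR-92b-3p the richest in G and C (63.6%, against 57.1% for miR-92a-3p). Over the 178 of 206 miRNAs that were matched to a mature sequence (86.4%), the GC content and the mean difference after O3 were related at Spearman's rho = 0.019 across miRNAs, which are not independent replicates. The median GC content was 47.8% for the 33 matched miRNAs that rose and 52.2% for the 11 that fell.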
